A study of Mus musculus with 16 samples.

Results

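The genes described here break down amino acids or carry their nitrogen into urea. The list holds 37 genes, and its members were found as the array probes whose gene symbol in the platform annotation is one of them. A gene was kept when a probe was detected, with a detection p-value under 0.01, on at least 2 of the 16 arrays. By that rule 21 of the 37 genes could be measured, out of 7746 genes measured in all. The measured ones are Ass1, Asl and Nags of the urea cycle, Fah and Gstz1 of tyrosine breakdown, and Tdo2 and Kynu of tryptophan breakdown. They also include Aass of lysine breakdown, Glud1 and Got2 of glutamate and aspartate metabolism, Ftcd of histidine breakdown, and Prodh and Aldh4a1 of proline breakdown. The branched-chain and propionyl-CoA group, Bckdha, Bckdhb, Dbt, Ivd, Pcca and Pccb, was measured in full, and the decarboxylase Ddc and the transporter Slc7a2 complete the set. A further 10 genes had probes that did not reach the detection rule, namely Agxt, Arg1, Haao, Hgd, Hpd, Kmo, Oat, Otc, Tat and Uroc1. The remaining 6, Cps1, Sds, Sdsl, Gls2, Hal and Got1, had no probe named for them in the annotation used and were not analysed here.

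The liver is the main site of amino acid breakdown. Carbon skeletons released there feed glucose synthesis, and the nitrogen is made into urea through a cycle that spans mitochondrion and cytosol. Glucagon, acting through cAMP, is known to raise several of these enzymes in fasting, alongside the genes of glucose synthesis.

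C57BL/6 mice, 6 to 8 weeks old, gave the primary hepatocytes, which are liver cells kept in culture. All of them carried an adenovirus, either the GFP control (shGFP in the study's design) or one with shRNA against HDAC4 and 5, written shHDAC45 below. These are class IIa histone deacetylases, and the study's title asks about their part in hepatic glucose production. Each kind of cell received the solvent DMSO or forskolin, which turns on adenylyl cyclase and with it cAMP. Treatment lasted 2 h or 4 h, which gives 8 groups of 2 arrays. The 8 groups were GFP with DMSO 2 h, GFP with forskolin 2 h, GFP with DMSO 4 h, GFP with forskolin 4 h, and the same 4 conditions with shHDAC45. No group lacked a virus, so nothing here describes uninfected cells, and there was a single shRNA virus. Nothing in the labels ties the 2 arrays of a group to separate cultures or mice. The p-values therefore measure the spread between arrays, which may be technical, and 2 arrays a group limit the precision.

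Levels are normalized log2 intensities of the brightest probe of a gene, so a difference of 1 is a doubling, and no gene's level is set against another's. Tests are limma's moderated test with Benjamini-Hochberg adjustment over all 7746 genes, a change is called at an adjusted p under 0.05, and differences are given ± SE. The median intensity of an array before normalization was 103.2 to 117, and 8455 to 10082 of 24613 probes were detected. Arrays of 1 group correlated at 0.992 to 0.994. Hdac5 lay between 9.02 and 10.35 on the 8 GFP arrays and between 5.72 and 6.73 on the 8 shHDAC45 arrays, and Hdac4 between 7.40 and 8.66 against 5.74 and 6.99. G6pc, the glucose-6-phosphatase gene known to respond to cAMP, was at least 21.5-fold higher with forskolin at 2 h in GFP cells and at least 69.1-fold at 4 h, and Pck1, of glucose synthesis, at least 4.33-fold at 2 h. Of 14 hepatocyte markers with a probe, 10 were detected, while Alb, Fgb, Cyp2e1 and Asgr1 were not above background.

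In GFP cells forskolin raised genes of several branches of amino acid breakdown. At 2 h, 6 of the 21 measured genes rose (Ass1, Nags, Fah, Aass, Aldh4a1 and Ddc) and 3 fell (Bckdhb, Pccb and Slc7a2), where 21.3% of all genes were called, 10.6% higher and 10.8% lower. At 4 h, 8 rose (Ass1, Asl, Nags, Aass, Ftcd, Aldh4a1, Ddc and Slc7a2) and 0 fell, against 32.0% of all genes called, 14.4% higher and 17.7% lower. The median difference over the 21 genes was 0.16 at 2 h and 0.35 at 4 h, while that of all genes was -0.01 at both times. Ass1, Nags, Aass, Aldh4a1 and Ddc rose at both times, 5 of 21 genes where 3.43% of all genes did. Of the 3 measured urea cycle genes 2 rose at 2 h and all 3 at 4 h. None of the 6 branched-chain and propionyl-CoA genes rose at either time by this test, and the level of Dbt lay near background throughout.

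Ass1 encodes argininosuccinate synthase, which joins citrulline to aspartate. Its level was 10.36 on both GFP arrays with DMSO at 2 h, and 11.77 and 11.88 with forskolin. At 4 h it was 10.22 and 10.27 with DMSO, and 12.11 and 12.21 with forskolin. The forskolin arrays lay above the DMSO arrays at both times without overlap. The difference was 1.46 ± 0.09 at 2 h (adjusted p = 7.8e-08 by limma) and 1.92 ± 0.09 at 4 h (adjusted p = 6.9e-09). These are rises of 2.76-fold and 3.78-fold, and the response was larger at 4 h than at 2 h by 0.45 ± 0.13 (limma, adjusted p = 0.019). That time difference lost its call without GFP DMSO 2 h array A, GFP forskolin 2 h array B, GFP DMSO 4 h array B or GFP forskolin 4 h array A.

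Aldh4a1 encodes the dehydrogenase that turns the proline breakdown product pyrroline-5-carboxylate into glutamate. In GFP cells it was at 8.27 on both DMSO arrays at 2 h and at 10.42 and 10.63 with forskolin. At 4 h the DMSO arrays were at 8.35 and 8.46 and the forskolin arrays at 10.61 and 10.95. It stood higher by 2.25 ± 0.14 at 2 h (limma, adjusted p = 7.9e-08) and by 2.38 ± 0.14 at 4 h (adjusted p = 5.7e-08), or 4.77-fold and 5.21-fold. Prodh, the proline dehydrogenase that works just before it, did not pass the test, with differences of -0.32 ± 0.16 and 0.21 ± 0.16.

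Aass encodes the enzyme that starts lysine breakdown through saccharopine. In GFP cells its arrays read 7.39 and 7.42 with DMSO and 8.30 and 8.45 with forskolin at 2 h. At 4 h they read 7.70 and 7.73 with DMSO and 9.12 and 9.20 with forskolin, again without overlap. The rise was 0.97 ± 0.10 (limma, adjusted p = 1.6e-05) and 1.44 ± 0.10 (adjusted p = 3.6e-07).

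The stretches of 100 bases just before the starts of these 3 genes in the RefSeq promoter table, on the build GRCm38.p6, are shown because the 3 rose together in GFP cells but, as described below, differed in the shHDAC45 cells. The capitals mark TGACG, the half-site of the cAMP response element, found by a search of the letters TGACG and CGTCA on both strands.
Ass1, chr2:31470170-31470269, plus strand: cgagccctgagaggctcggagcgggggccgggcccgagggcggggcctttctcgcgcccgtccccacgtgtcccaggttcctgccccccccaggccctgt
Aldh4a1, chr4:139622794-139622893, plus strand: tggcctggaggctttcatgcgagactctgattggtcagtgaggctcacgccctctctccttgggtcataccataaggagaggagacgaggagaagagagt
Aass, chr6:23132987-23133086, minus strand: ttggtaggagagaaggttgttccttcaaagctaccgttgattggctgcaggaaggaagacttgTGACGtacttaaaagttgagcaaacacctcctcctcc
For Aldh4a1 the annotated gene span begins at 139622871, inside the stretch shown. A promoter window of 250 bases before to 50 bases after the start was at hand for 17 of the 21 measured genes. The half-site stood in the windows of 5 of the 17 (Aass, Ftcd, Gstz1, Nags and Pcca), which is 29.4%, against 23.0% of all 27025 genes with a window. The Pcca window with the match, chr14:122534078-122534377, lies inside the annotated gene span, which begins at 122484365, and not at its start. The full palindrome TGACGTCA, which contains the half-site, was in 0 of the 17 and in 2.03% of all. A match describes the letters and is not evidence of a bound site.

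Ddc encodes aromatic L-amino acid decarboxylase, which makes dopamine and serotonin in other tissues. It showed the highest fold of the 21 genes in GFP cells at 4 h. Its arrays read 7.67 and 7.68 with DMSO at 2 h against 8.99 and 9.15 with forskolin, and 8.81 and 8.97 with DMSO at 4 h against 12.02 and 12.20. The difference grew from 1.40 ± 0.18 at 2 h (limma, adjusted p = 8.1e-05) to 3.22 ± 0.18 at 4 h (adjusted p = 3.3e-08), or from 2.63-fold to 9.32-fold. The growth of 1.82 ± 0.25 passed its own test (limma, adjusted p = 0.00016). Ddc also rose with time in DMSO, and set against DMSO of 4 h the forskolin arrays of 2 h were higher by 0.18 (limma, adjusted p = 0.54), so the 2 h call depends on the DMSO arrays chosen.

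Nags makes N-acetylglutamate, the activator of the carbamoyl phosphate synthetase that opens the urea cycle. In GFP cells it read 7.99 and 8.00 with DMSO and 8.51 and 8.75 with forskolin at 2 h, then 7.35 and 7.90 against 8.47 and 8.97 at 4 h. The rise was 0.63 ± 0.21 at 2 h (limma, adjusted p = 0.049) and 1.09 ± 0.21 at 4 h (adjusted p = 0.0015). The 2 h call was lost without any 1 of the 4 GFP arrays compared and under other choices of processing given in the closing section. Asl, the lyase that releases arginine from argininosuccinate, passed at 4 h with 0.45 ± 0.16 (limma, adjusted p = 0.048), a call that was lost without any 1 of the 4 arrays compared.

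**Figure D1:**
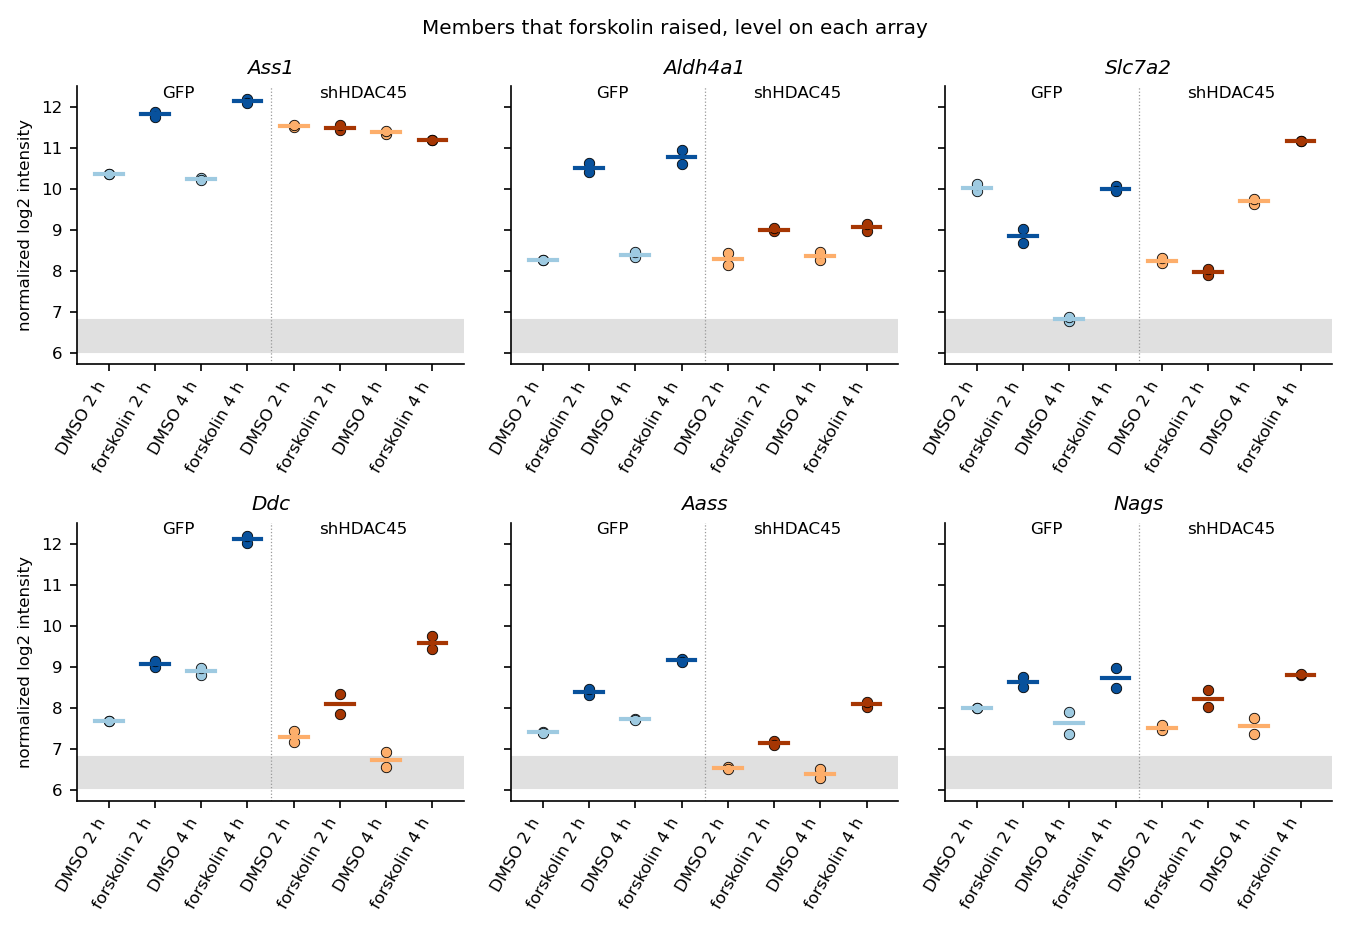
Normalized log2 intensity (vertical axis) of 6 genes on each of the 16 arrays (points), by virus, treatment and time. Horizontal bars are means of 2 arrays, and the grey band spans the lowest detected signal of the arrays. Ass1 and Aldh4a1 stand high with forskolin in GFP cells but not, or less, in shHDAC45 cells, and Slc7a2 moves between the DMSO groups as well.

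Other changes in GFP cells were smaller. Fah, which performs the last step of tyrosine breakdown, rose by 0.40 ± 0.12 at 2 h (limma, adjusted p = 0.034) and stood at 0.03 ± 0.12 at 4 h. Ftcd, which links histidine breakdown to folate, passed at 4 h with 0.42 ± 0.14 (limma, adjusted p = 0.031). Bckdhb, a subunit of the branched-chain ketoacid dehydrogenase, fell by 0.79 at 2 h (SE 0.16, limma, adjusted p = 0.0041), and Pccb, a subunit of propionyl-CoA carboxylase, fell by 0.32 (SE 0.10, adjusted p = 0.048). At 4 h Bckdhb was at 0.25 ± 0.16 and Pccb at 0.24 ± 0.10, neither past the test. Against DMSO of the other time Fah was at -0.04 at 2 h and Bckdhb at -0.04 at 2 h and -0.50 at 4 h. The calls of Fah and Pccb at 2 h were lost without any 1 of the 4 arrays compared, and that of Bckdhb without GFP DMSO 2 h array A. Without this array 5 of the 21 genes, not 9, passed at 2 h. The call of Ftcd at 4 h was lost without GFP DMSO 4 h array A or either forskolin array. Gstz1, Kynu, Glud1, Got2, Bckdha, Ivd, Pcca and Dbt did not pass at either time. Tdo2, which opens tryptophan breakdown, was detected on no array but the 2 of GFP cells with forskolin at 4 h, at 6.5 and 7.31, so it entered the analysis through that group alone.

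The scaling of the arrays bears on these counts. With median scaling in place of quantile normalization the median of all genes shifted by -0.26 at 2 h in GFP cells, and 13.9% of all calls were rises there, not 49.5%. Of the 21 genes, 4 then rose and 6 fell at 2 h, while 6 rose and 0 fell at 4 h, where 30.7% of all calls were rises, not 44.8%. Here and below, the share of all genes called under median scaling is not given. Its counts are therefore set only against the counts of the same 21 genes under quantile normalization. Ass1, Aass, Aldh4a1 and Ddc kept their call at both times under median scaling, and Nags lost it at 2 h.

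Slc7a2, the cationic amino acid transporter that takes up arginine and ornithine, changed with time in DMSO as well, in opposite directions with the 2 viruses. In GFP cells it read 9.96 and 10.12 with DMSO at 2 h but 6.79 and 6.88 with DMSO at 4 h. In shHDAC45 cells it read 8.20 and 8.32 at 2 h and 9.65 and 9.76 at 4 h. The DMSO arrays thus did not overlap between times with either virus. The change from 2 h to 4 h was -3.20 ± 0.12 in GFP cells (limma, adjusted p = 2.7e-09) and 1.44 ± 0.12 in shHDAC45 cells (adjusted p = 9.3e-06), and these differed by 4.65 ± 0.17 (adjusted p = 1.6e-09). A second probe gave -2.37 and 1.76.

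Because the DMSO level moved, the forskolin difference of Slc7a2 depends on the DMSO arrays it is set against. With forskolin, the GFP arrays read 8.69 and 9.04 at 2 h and 9.96 and 10.07 at 4 h. Against DMSO of the same time this is -1.17 ± 0.12 at 2 h (limma, adjusted p = 1.5e-05) and 3.17 ± 0.12 at 4 h (adjusted p = 1.3e-09). Against DMSO of the other time it is 2.03 at 2 h and -0.03 at 4 h, so neither direction held. The shHDAC45 arrays read 7.90 and 8.06 with forskolin at 2 h and 11.18 on both at 4 h, differences of -0.28 ± 0.12 (limma, adjusted p = 0.27) and 1.48 ± 0.12 (adjusted p = 2e-06). Against DMSO of the other time these differences are -1.72 at 2 h and 2.92 at 4 h.

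Time in DMSO moved some of the other genes too. In GFP cells 3 of the 21 were higher at 4 h than at 2 h (Fah, Tdo2 and Ddc) and 2 lower (Bckdhb and Slc7a2), where 11.7% of all genes were called, 6.04% higher and 5.67% lower. Tdo2 was below background in both of these groups, so its call gives no fold. In shHDAC45 cells 1 was higher (Slc7a2) and 2 lower (Ftcd and Pcca), where 8.64% of all genes were called, 4.48% higher and 4.16% lower. Without single arrays these counts came down to as few as 2 in GFP cells (without GFP DMSO 2 h array A or 4 h array A) and 1 in shHDAC45 cells (without DMSO 2 h array B or 4 h array A). With median scaling 35.3% of all calls in GFP cells were rises, not 51.6%, and 2 of the 21 genes rose and 2 fell. The change with time differed between the viruses for Fah, Glud1, Bckdhb, Ddc and Slc7a2, a test added after the values were seen, in which 11.0% of all genes were called, 5.37% positive and 5.65% negative. Of these calls those of Ddc and Slc7a2 held under every alternative tried, while Bckdhb lost its call without any 1 of 7 arrays and Glud1 without GFP DMSO 4 h array B. Without that last array 3 of the 5 remained. With median scaling, which moved rises from 48.7% to 59.7% of all calls there, Fah and Glud1 were not called.

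In shHDAC45 cells the counts depend on the DMSO arrays used. Against DMSO of the same time, at 2 h, 3 of the 21 rose (Aass, Aldh4a1 and Ddc) and 0 fell, where 4.80% of all genes were called, 2.29% higher and 2.52% lower. All 3 calls were lost when only the 4 compared arrays were fitted, and Aass alone remained without shHDAC45 forskolin 2 h array B. Against DMSO of the other time 8 rose and 1 fell at 2 h in shHDAC45 cells, and 5 rose and 0 fell in GFP cells. The order of these counts between the viruses thus turned round. Such a difference also holds the change with time. The share of all genes called in that fit is not given here, so these counts describe the 21 genes alone. At 4 h, against DMSO of the same time, 9 rose (Nags, Aass, Ftcd, Aldh4a1, Ivd, Pcca, Pccb, Ddc and Slc7a2) and 0 fell. There 35.3% of all genes were called, 17.4% higher and 18.0% lower. Ftcd and Pcca had fallen with time in DMSO, and against DMSO of the other time Ftcd was at -0.11 (limma, adjusted p = 0.55) and Pcca at 0.20 (adjusted p = 0.39). The median difference was 0.18 at 2 h and 0.40 at 4 h. Aass, Aldh4a1 and Ddc thus rose at both times with both viruses, 3 of 21 genes where 0.981% of all genes did.

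Ass1 did not pass the test of forskolin in shHDAC45 cells. It read 11.51 and 11.57 with DMSO and 11.45 and 11.56 with forskolin at 2 h, and 11.35 and 11.42 with DMSO and 11.19 on both arrays with forskolin at 4 h. Its DMSO arrays lay above those of GFP cells, and its forskolin arrays below them. The forskolin difference was -0.03 ± 0.09 at 2 h (limma, adjusted p = 0.91, interval -0.22 to 0.16) and -0.20 ± 0.09 at 4 h (adjusted p = 0.1, interval -0.40 to -0.01), where the intervals are 95% confidence limits. The response differed from that of GFP cells by -1.49 ± 0.13 at 2 h (limma, adjusted p = 1.3e-05) and by -2.12 ± 0.13 at 4 h (adjusted p = 4.5e-07), with the same call under every alternative tried. Against DMSO of the other time the 4 h difference in shHDAC45 cells was -0.35 (limma, adjusted p = 0.0077). Set against GFP cells, Ass1 was higher with DMSO by 1.18 ± 0.09 at 2 h (limma, adjusted p = 3.3e-07) and by 1.15 ± 0.09 at 4 h (adjusted p = 3.1e-07). With forskolin it was lower, by 0.32 ± 0.09 at 2 h (limma, adjusted p = 0.011) and by 0.97 ± 0.09 at 4 h (adjusted p = 1.2e-06). The first of these lost its call without GFP forskolin 2 h array A or shHDAC45 forskolin 2 h array A, and with median scaling.

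Aldh4a1 responded in shHDAC45 cells, but less. It read 8.16 and 8.44 with DMSO and 8.97 and 9.05 with forskolin at 2 h, and 8.27 and 8.46 against 8.98 and 9.16 at 4 h. The DMSO arrays overlapped those of GFP cells, while every forskolin array lay below every forskolin array of GFP cells. The rise was 0.71 ± 0.14 at 2 h (limma, adjusted p = 0.0088) and 0.70 ± 0.14 at 4 h (adjusted p = 0.0018), which is 1.64-fold and 1.63-fold. The 2 h call was lost without shHDAC45 DMSO 2 h array A or forskolin 2 h array B. The response differed from that in GFP cells by -1.54 ± 0.20 at 2 h (limma, adjusted p = 0.00038) and by -1.68 ± 0.20 at 4 h (adjusted p = 0.00015).

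For Ddc, Aass and Nags the response did not differ past the test between the viruses. Ddc rose from 7.16 and 7.43 to 7.86 and 8.33 at 2 h in shHDAC45 cells, and from 6.55 and 6.91 to 9.43 and 9.75 at 4 h. These are rises of 0.80 ± 0.18 (limma, adjusted p = 0.018) and 2.86 ± 0.18 (adjusted p = 1.6e-07), and the difference between the viruses lay between -0.90 and 0.17 at 4 h (95% interval) and between -1.13 and -0.06 at 2 h, the latter with an adjusted p of 0.2 by limma. Aass rose by 0.59 ± 0.10 and 1.69 ± 0.10, with intervals of the difference from -0.69 to -0.06 at 2 h and from -0.07 to 0.56 at 4 h. Nags gained 1.26 ± 0.21 at 4 h (limma, adjusted p = 0.00057), and the interval of its difference was -0.47 to 0.82. A second Nags probe, detected on 5 arrays, stood at 0.63 in shHDAC45 and 1.59 in GFP cells, a difference of -0.96 ± 0.30 (limma, adjusted p = 0.073).

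The test of the difference between the viruses called 4 of the 21 genes at 2 h, Ass1 and Aldh4a1 with a smaller and Slc7a2 and Pccb with a higher value in shHDAC45 cells, where 5.96% of all genes were called, 3.12% with a higher and 2.84% with a lower value. At 4 h it called 3 (Ass1, Aldh4a1 and Slc7a2), all with a smaller response, where 8.57% of all genes were called, 4.80% with a higher and 3.77% with a lower value. For Pccb the difference was 0.63 ± 0.15 (limma, adjusted p = 0.025), from -0.32 in GFP to 0.31 ± 0.10 in shHDAC45 cells, and it lost its call without 7 of the 8 arrays compared. For Slc7a2 it was 0.89 ± 0.17 at 2 h (limma, adjusted p = 0.0081) and -1.70 ± 0.17 at 4 h (adjusted p = 5.1e-05), the former not called on the second probe (adjusted p = 0.075). Both signs depend on the DMSO arrays used. Against DMSO of the other time Slc7a2 was at 2.03 in GFP and -1.72 in shHDAC45 cells at 2 h. At 4 h it was then at -0.03 and 2.92, so the order of the viruses turned round at both times. Got2, the mitochondrial aspartate aminotransferase, gave -0.05 ± 0.15 at 4 h on its brightest probe and -1.13 ± 0.26 (limma, adjusted p = 0.021) on a second one, so its probes disagree. Median scaling shifted the median of all genes by 0.21 at 2 h and 0.16 at 4 h in this test and raised the share of positive values among all calls from 52.4% to 82.5% and from 56% to 78%. It left 3 of the 21 genes with a higher and 2 with a lower value at 2 h, and the same count of 3 lower at 4 h.

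**Figure D2:**
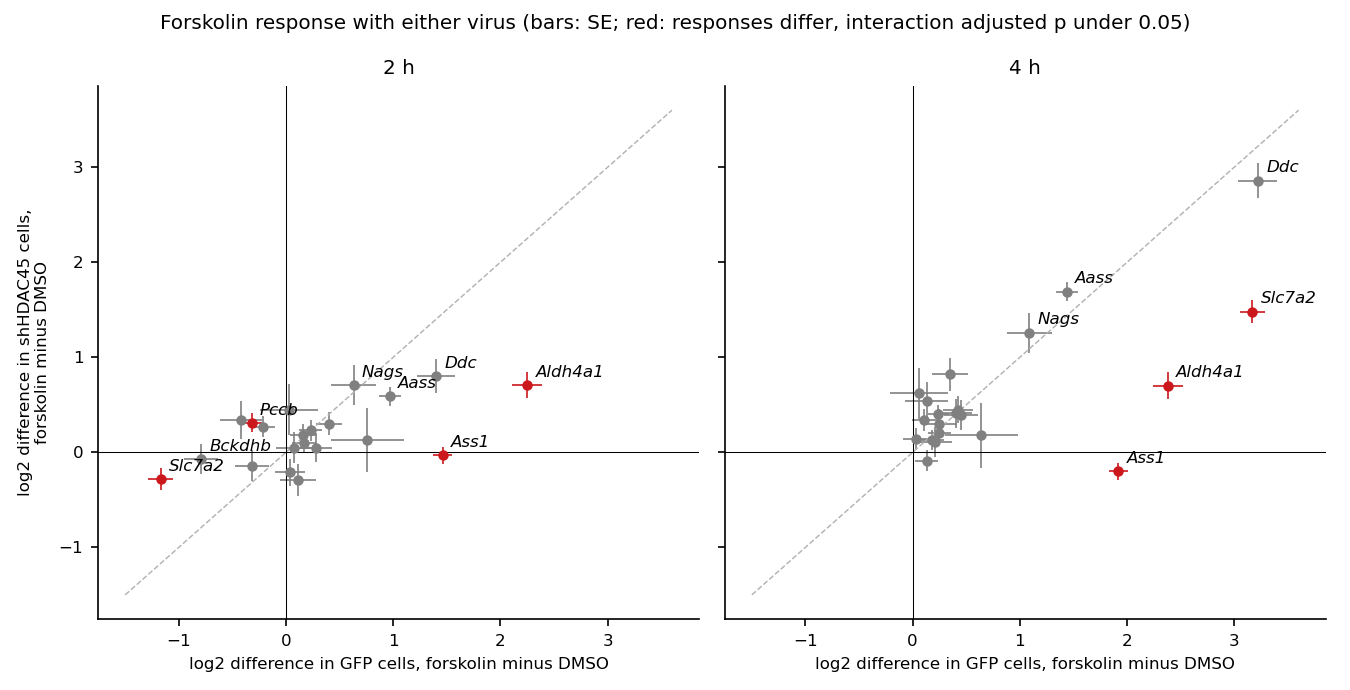
Forskolin minus DMSO in shHDAC45 cells (vertical axis, log2) against the same in GFP cells (horizontal axis, log2) for the 21 measured genes at 2 h and 4 h. Bars are SE, the dashed line marks equal responses, and red marks genes whose response differed between the viruses by limma's test. Ass1 lies near 0 on the vertical axis at both times, while Ddc and Aass lie near the dashed line at 4 h.

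The size of the forskolin response was compared between times too. In GFP cells 7 of the 21 genes had a higher value at 4 h than at 2 h (Ass1, Aass, Got2, Bckdhb, Pccb, Ddc and Slc7a2) and 0 a lower one, where 26.6% of all genes were called, 12.6% higher and 14.0% lower. In shHDAC45 cells 5 did (Aass, Ftcd, Pcca, Ddc and Slc7a2) and 0 were lower, where 19.8% of all genes were called, 9.26% higher and 10.6% lower. For Ddc the gain was 2.05 ± 0.25 in shHDAC45 cells (limma, adjusted p = 0.00016), and for Aass 1.09 ± 0.14 (adjusted p = 0.00029). Some of these values hold changes of DMSO. In GFP cells mean Bckdhb went from 9.75 to 9.01 with DMSO and from 8.96 to 9.26 with forskolin. In shHDAC45 cells Pcca went from 6.46 to 5.84 with DMSO and 6.18 to 6.66 with forskolin, and Ftcd from 11.34 to 10.78 and 11.13 to 11.23. The second Got2 probe gave 0.65 ± 0.26 in GFP cells (limma, adjusted p = 0.096). The count in GFP cells was 4 without GFP DMSO 4 h array B or GFP forskolin 4 h array A. Median scaling moved positive values from 47.3% to 66% of all calls in GFP cells and from 46.7% to 59.5% in shHDAC45 cells, where it called 7 and 4 of the 21 genes, all positive.

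Most of the measured genes were lower in shHDAC45 cells than in GFP cells. With DMSO at 2 h 11 of the 21 were lower and 1 higher (Ass1) than in GFP cells, where 50% of all genes were called, 25.1% higher and 25.0% lower. With DMSO at 4 h 14 were lower and 2 higher (Ass1 and Slc7a2), where 52.7% were called, 26.6% higher and 26.2% lower. With forskolin 15 were lower and 1 higher (Got2) at 2 h, where 50.1% were called, 25.4% higher and 24.7% lower, and 17 were lower and 1 higher (Slc7a2) at 4 h, where 59.1% were called, 30.0% higher and 29.0% lower. The median difference of the 21 genes was -0.48 and -0.78 with DMSO at 2 h and 4 h, and -0.62 and -0.84 with forskolin, while that of all genes was 0.00 to 0.01. Lower in all 4 conditions were 10 of the 21 (Asl, Gstz1, Kynu, Aass, Glud1, Bckdha, Bckdhb, Ivd, Pcca and Pccb), where 13.0% of all genes were lower in all 4. Higher in all 4 were 0 of the 21, where 13.8% of all genes were. Every shHDAC45 array lay below every GFP array for 10 of the 21, against 11.7% of all genes. Kynu, detected on all 8 GFP arrays and 1 shHDAC45 array, and Tdo2, detected in one GFP group alone, met the detection rule only through groups where they are high, and their differences are therefore a description. Without these 2 genes 10 and 12 of 19 were lower with DMSO at 2 h and 4 h, 14 and 15 with forskolin, and 9 in all 4 conditions.

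Levels of hepatocyte markers moved the same way. All 10 detected markers were lower in shHDAC45 cells on the mean of the 4 conditions, and their summed linear level was 24800 to 40600 on the GFP arrays and 8580 to 15800 on the shHDAC45 arrays. Of Kupffer cell markers 5 of 7 with a probe were detected (sums 2120 to 2440 on GFP and 1520 to 2060 on shHDAC45 arrays, Clec4f and Cd5l not above background), and of endothelial markers 5 of 7 (924 to 1340 and 1270 to 2170, Kdr and Clec4g not above background). Stellate cell markers gave 6750 to 8320 and 9110 to 10800 over 4 of 8, with Lrat, Des, Pdgfrb and Hand2 not above background. All 4 were higher in shHDAC45 cells, where 37.5% of all genes were higher on the mean of the 4 conditions. Cholangiocyte markers gave 2740 to 6730 and 936 to 1340 over 3 of 5, with Epcam and Cftr not above background. Leukocyte markers gave 193 to 460 and 229 to 452 over 3 of 7, with Ptprc, S100a9, Cd3e and Cd79a not above background. A single bright gene makes up most of 2 of these sums. Mean log2 was 13.02 for Acta2 against 7.76, 7.33 and 6.84 for Col1a1, Col3a1 and Reln of the stellate list. In the cholangiocyte list it was 10.81 for Sox9 against 7.92 for Krt19 and 7.38 for Krt7. The part of these shifts in the differences of the amino acid genes was not tested, and fewer hepatocytes and less RNA per hepatocyte cannot be told apart in such samples.

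The largest decrease was that of Kynu, the kynureninase of tryptophan breakdown. It read 8.53 and 8.81 with DMSO at 2 h in GFP cells and 5.48 and 5.94 in shHDAC45 cells, 8.73 and 8.81 against 5.36 and 5.99 with DMSO at 4 h, 8.17 and 8.34 against 5.99 and 6.12 with forskolin at 2 h, and 8.89 and 8.90 against 6.02 and 6.40 with forskolin at 4 h. In 3 of these conditions it was on no shHDAC45 array above background. There it was at least 4.62-fold lower with DMSO at 2 h, at least 5.07-fold with DMSO at 4 h and at least 3.41-fold with forskolin at 2 h. With forskolin at 4 h, where 1 of the 2 knockdown arrays detected it, it was lower by 2.69 ± 0.20. Such a bound sets the GFP mean against the lowest detected signal of the knockdown arrays, or the probe's own signal where that is higher. Tdo2, the tryptophan dioxygenase, read 5.02 and 5.27 with forskolin at 4 h in shHDAC45 cells, below background, and was above background in the GFP group of that condition alone.

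Of the 6 branched-chain and propionyl-CoA genes, 5 were lower in all 4 conditions, and Dbt, the core subunit of the branched-chain ketoacid dehydrogenase, was called in none. Pcca, the biotin-carrying subunit of propionyl-CoA carboxylase, read 7.97 and 8.30 in GFP and 6.45 and 6.48 in shHDAC45 cells with DMSO at 2 h, and 8.17 and 8.42 against 6.65 and 6.67 with forskolin at 4 h. It was lower by 1.67 ± 0.17 (limma, adjusted p = 4.6e-06) and 1.63 ± 0.17 (adjusted p = 4.2e-06) in these conditions. With DMSO at 4 h it was at least 2.85-fold lower and with forskolin at 2 h at least 3.41-fold lower, since neither knockdown array detected it. Bckdhb read 9.53 and 9.98 against 8.02 and 8.04 with DMSO at 2 h, and 9.25 and 9.27 against 8.41 and 8.62 with forskolin at 4 h. Its differences were -1.72 ± 0.16 and -0.79 ± 0.16 with DMSO at 2 h and 4 h, and -1.0 ± 0.16 and -0.74 ± 0.16 with forskolin, with adjusted p-values from limma of 2.5e-06 to 0.0018.

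Bckdha, the partner subunit of Bckdhb, was lower by nearly the same amount in each condition. It lay between 10.46 and 10.73 on the 8 GFP arrays and between 9.50 and 9.99 on the 8 shHDAC45 arrays, with differences from -0.96 to -0.74. Ivd, isovaleryl-CoA dehydrogenase of leucine breakdown, lay between 9.46 and 9.93 and between 8.73 and 9.22, with differences from -0.93 to -0.70. The arrays of the 2 viruses did not overlap for either gene, and both kept their calls in all 4 conditions under every alternative tried. Pccb differed by -0.91 ± 0.10 and -0.80 ± 0.10 with DMSO and by -0.29 ± 0.10 and -0.64 ± 0.10 with forskolin. Its call with forskolin at 2 h (limma, adjusted p = 0.035) was lost without GFP forskolin 2 h array A or either knockdown array, and with median scaling.

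Glud1, glutamate dehydrogenase, which releases ammonia from glutamate, lay between 12.69 and 13.63 on the GFP arrays and between 11.29 and 12.01 on the shHDAC45 arrays. It was lower by 0.96 ± 0.15 and 1.89 ± 0.15 with DMSO at 2 h and 4 h, and by 1.19 ± 0.15 and 1.88 ± 0.15 with forskolin (limma, adjusted p from 3.5e-07 to 0.00018). Its partner in glutamate metabolism, Got2, was higher by 0.30 ± 0.11 with forskolin at 2 h (limma, adjusted p = 0.033) on its brightest probe. That call was lost without GFP forskolin 2 h array A or either knockdown array, and the median of both probes gave -0.05. The second Got2 probe was lower by 1.06 ± 0.19 with forskolin at 4 h (limma, adjusted p = 0.00035).

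**Figure D3:**
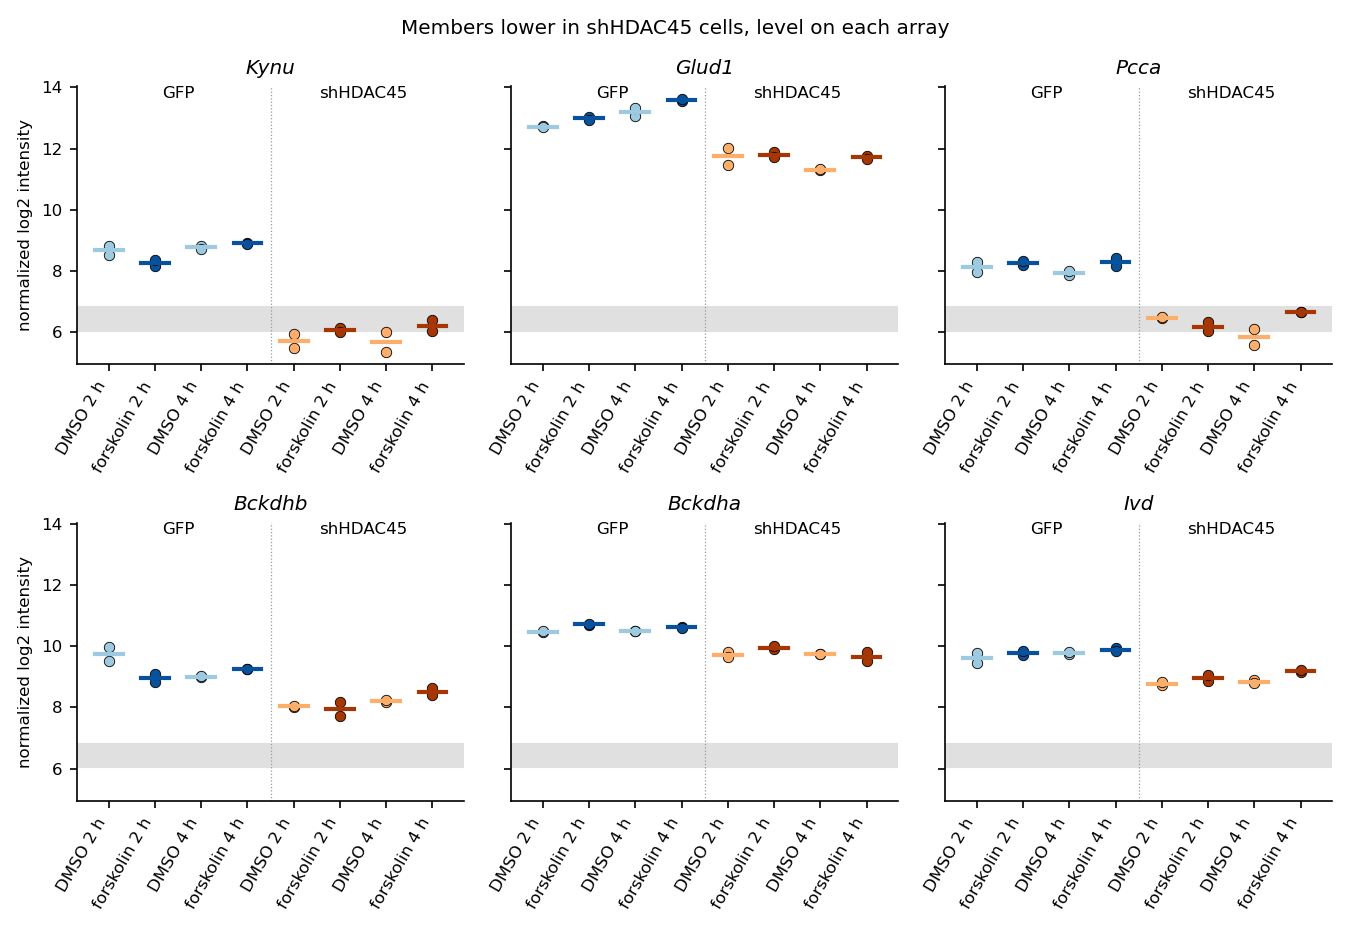
Normalized log2 intensity (vertical axis) of 6 genes on each of the 16 arrays (points), by virus, treatment and time, with means of 2 arrays as bars and the lowest detected signals of the arrays as a grey band. The shHDAC45 arrays lie below the GFP arrays for all 6 genes, and those of Kynu and Pcca lie in or below the band.

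Aass was lower in all 4 conditions although it responded to forskolin. It was lower by 0.87 ± 0.10 and 1.32 ± 0.10 with DMSO and by 1.25 ± 0.10 and 1.08 ± 0.10 with forskolin, and its shHDAC45 arrays with forskolin at 4 h, 8.03 and 8.13, reached above the GFP arrays with DMSO. Ddc followed a different course. With DMSO at 2 h the difference was -0.38 ± 0.18 (limma, adjusted p = 0.09), and with DMSO at 4 h it was -2.16 ± 0.18 (adjusted p = 4.4e-07), as Ddc rose with time in GFP cells by 1.21 ± 0.18 and stood at -0.56 ± 0.18 in shHDAC45 cells. With forskolin Ddc was lower by 0.97 ± 0.18 at 2 h (limma, adjusted p = 0.00049) and by 2.52 ± 0.18 at 4 h (adjusted p = 8.6e-08).

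Among urea cycle genes Asl was lower in every condition, with differences from -0.64 to -0.58 ± 0.16 on its brightest probe. Its arrays lay between 11.05 and 11.63 in GFP cells and between 10.41 and 10.99 in shHDAC45 cells, without overlap, and each of its other 2 probes was also lower in all 4. Without single arrays (GFP DMSO 2 h array B, or shHDAC45 array A of DMSO 2 h, DMSO 4 h or forskolin 2 h) a call of Asl was lost in the condition concerned. Nags did not pass in any condition on its brightest probe. Its second probe was lower with forskolin by 0.84 ± 0.21 at 2 h (limma, adjusted p = 0.0057) and 1.03 ± 0.21 at 4 h (adjusted p = 0.0012). Aldh4a1 was at 0.03 ± 0.14 and -0.03 ± 0.14 with DMSO and lower with forskolin by 1.51 ± 0.14 at 2 h (limma, adjusted p = 1.6e-06) and 1.71 ± 0.14 at 4 h (adjusted p = 3.4e-07).

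The remaining genes changed less. Gstz1, the isomerase of tyrosine breakdown, was lower by 0.37 ± 0.11 and 0.78 ± 0.11 with DMSO and by 0.44 ± 0.11 and 0.84 ± 0.11 with forskolin. Its call with DMSO at 2 h was lost without GFP DMSO 2 h array B or shHDAC45 DMSO 2 h array B, and its call with forskolin at 2 h with median scaling. Fah was lower at 4 h alone by this test, by 0.63 ± 0.12 with DMSO (limma, adjusted p = 0.00074) and 0.52 ± 0.12 with forskolin (adjusted p = 0.0026). Ftcd passed in 3 conditions, with -0.88 ± 0.14 with DMSO at 4 h and -0.54 ± 0.14 and -0.85 ± 0.14 with forskolin. Its call with forskolin at 2 h was lost without shHDAC45 forskolin 2 h array A. Prodh passed with forskolin at 4 h, at -0.49 ± 0.16 (limma, adjusted p = 0.02), which was lost without GFP forskolin 4 h array A or shHDAC45 forskolin 4 h array A. Slc7a2 was lower at 2 h, by 1.78 ± 0.12 with DMSO (limma, adjusted p = 1.4e-07) and 0.89 ± 0.12 with forskolin (adjusted p = 6.2e-05), and higher at 4 h, by 2.87 ± 0.12 (adjusted p = 1.4e-09) and 1.17 ± 0.12 (adjusted p = 4e-06).

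Under median scaling the median of all genes stood at 0.17 with forskolin at 2 h and 0.15 with forskolin at 4 h, and higher values made up 67.3% and 65.8% of all calls, not 50.7% and 50.9%. Of the 21 genes 10 were then lower with forskolin at 2 h and 16 at 4 h, with 1 higher in each, and 7 rather than 10 were lower in all 4 conditions. The shares of all genes called lower under this scaling are not given, so these counts are not set against them. With DMSO the counts were the same as under quantile normalization, 11 and 14 lower. Averaged over the 4 conditions, 16 of the 21 genes were lower and 2 higher (Ass1 and Slc7a2) under both scalings, where quantile normalization called 73.7% of all genes, 37.5% higher and 36.2% lower.

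**Figure D4:**
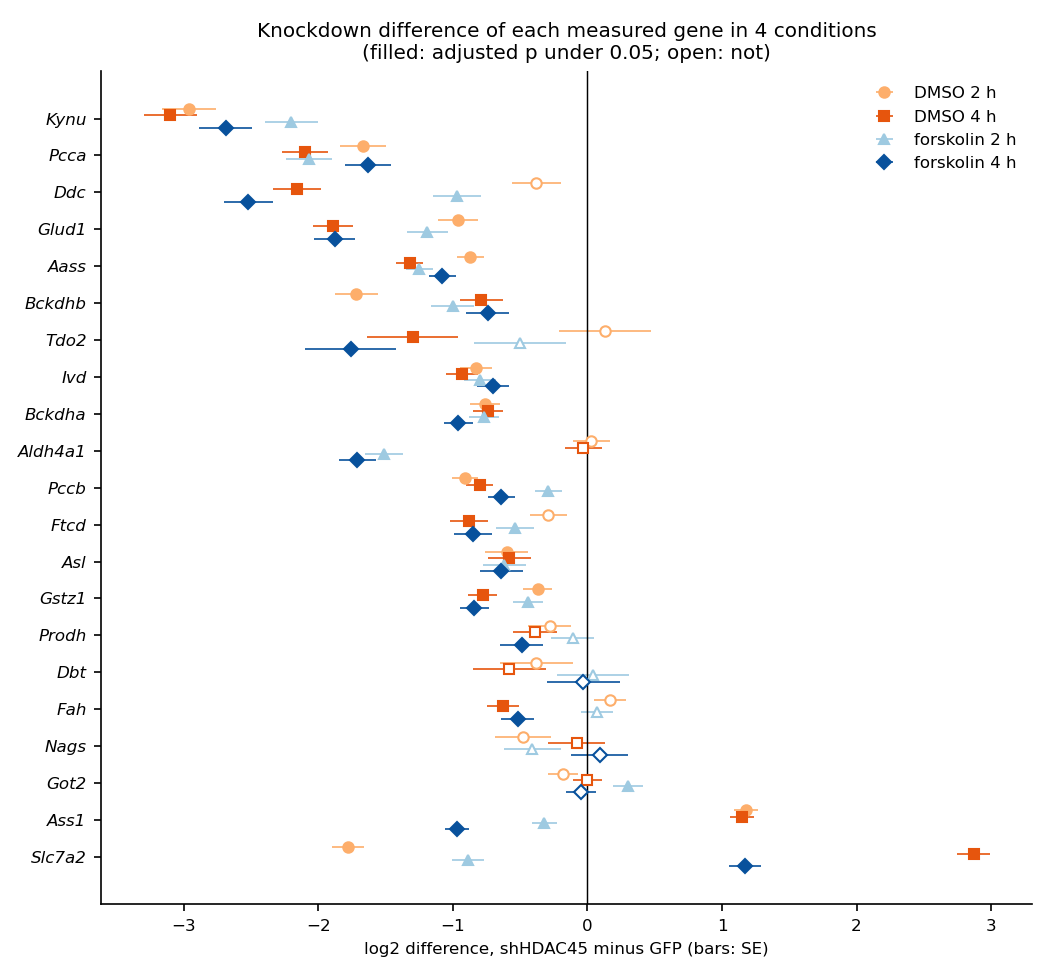
Difference of shHDAC45 minus GFP cells (horizontal axis, log2, bars SE) for the 21 measured genes (vertical axis) with DMSO and forskolin at 2 h and 4 h. Filled symbols passed limma's test. Most symbols lie left of 0, Ass1 lies right of 0 with DMSO and left with forskolin, and Slc7a2 lies left at 2 h and right at 4 h. Values of Kynu, Pcca and Tdo2 rest in part on arrays below background.

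A further list of 61 enzymes and carriers of amino acid metabolism outside the 37, of which 42 were measured, was examined the same way. Averaged over the 4 conditions, 26 of the 42 were lower and 8 higher in shHDAC45 cells, where 36.2% of all genes were lower and 37.5% higher. Aldh6a1, the semialdehyde dehydrogenase of valine breakdown, lay between 9.61 and 10.06 on the GFP arrays and between 7.73 and 8.56 on the shHDAC45 arrays, a difference of -1.66 ± 0.06 on the mean (limma, adjusted p = 5.9e-11). Csad, which makes the taurine precursor hypotaurine, was lower by 2.27 ± 0.06 (limma, adjusted p = 2.9e-12). Acadsb and Mccc2 of isoleucine and leucine breakdown were among the 5 with the smallest p with DMSO at 2 h, at -1.57 ± 0.13 and -1.18 ± 0.11, and Hibadh of valine breakdown with forskolin at 2 h, at -0.94 ± 0.10. Arg2, the mitochondrial arginase, was on no GFP array above background, so it met the detection rule through shHDAC45 arrays alone and its values are a description. It was at least 2.6-fold higher in shHDAC45 cells with DMSO at 4 h and at least 4.28-fold with forskolin at 4 h. Pipox was detected on every GFP array but on only 1 shHDAC45 array, with forskolin at 2 h. Cdo1 was detected only on the 2 shHDAC45 arrays with forskolin at 4 h. Each thus met the detection rule through the arrays of a single virus. Arg2, Pipox and Cdo1 are among the 42 genes counted here, and the counts were not made without them.

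Forskolin raised 10 of these 42 genes and lowered 1 at 2 h in GFP cells, and raised 17 and lowered 4 at 4 h. Of all genes 10.6% rose and 10.8% fell at 2 h, and 14.4% and 17.7% at 4 h. Arg2 had the lowest difference of the 42 genes at 2 h in GFP cells, from 6.21 with DMSO to 4.89 with forskolin. It was below background in both of these groups, so its fall gives no fold. Slc25a15, the mitochondrial ornithine carrier that serves the urea cycle, read 9.73 and 9.76 with DMSO and 12.45 and 12.53 with forskolin at 4 h in GFP cells, and 9.70 and 9.77 against 11.91 and 12.03 in shHDAC45 cells. It rose by 2.75 ± 0.11 (limma, adjusted p = 1.4e-09) and 2.24 ± 0.11 (adjusted p = 4e-08). Amdhd1 of histidine breakdown rose by 1.74 ± 0.10 at 4 h in GFP cells (limma, adjusted p = 5.3e-08) and stood at 0.21 ± 0.10 in shHDAC45 cells, which differ by -1.53 ± 0.14 (adjusted p = 2.2e-05). Slc25a22, a mitochondrial glutamate carrier, rose by 1.5 ± 0.11 at 2 h in GFP cells (limma, adjusted p = 4.4e-07), and its response in shHDAC45 cells differed by -1.37 ± 0.15 (adjusted p = 0.00014). The difference between the viruses was called for 5 of the 42 genes (11.9%) at 2 h and 2 (4.76%) at 4 h, all with the smaller value in shHDAC45 cells, where 5.96% and 8.57% of all genes were called.

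**Figure D5:**
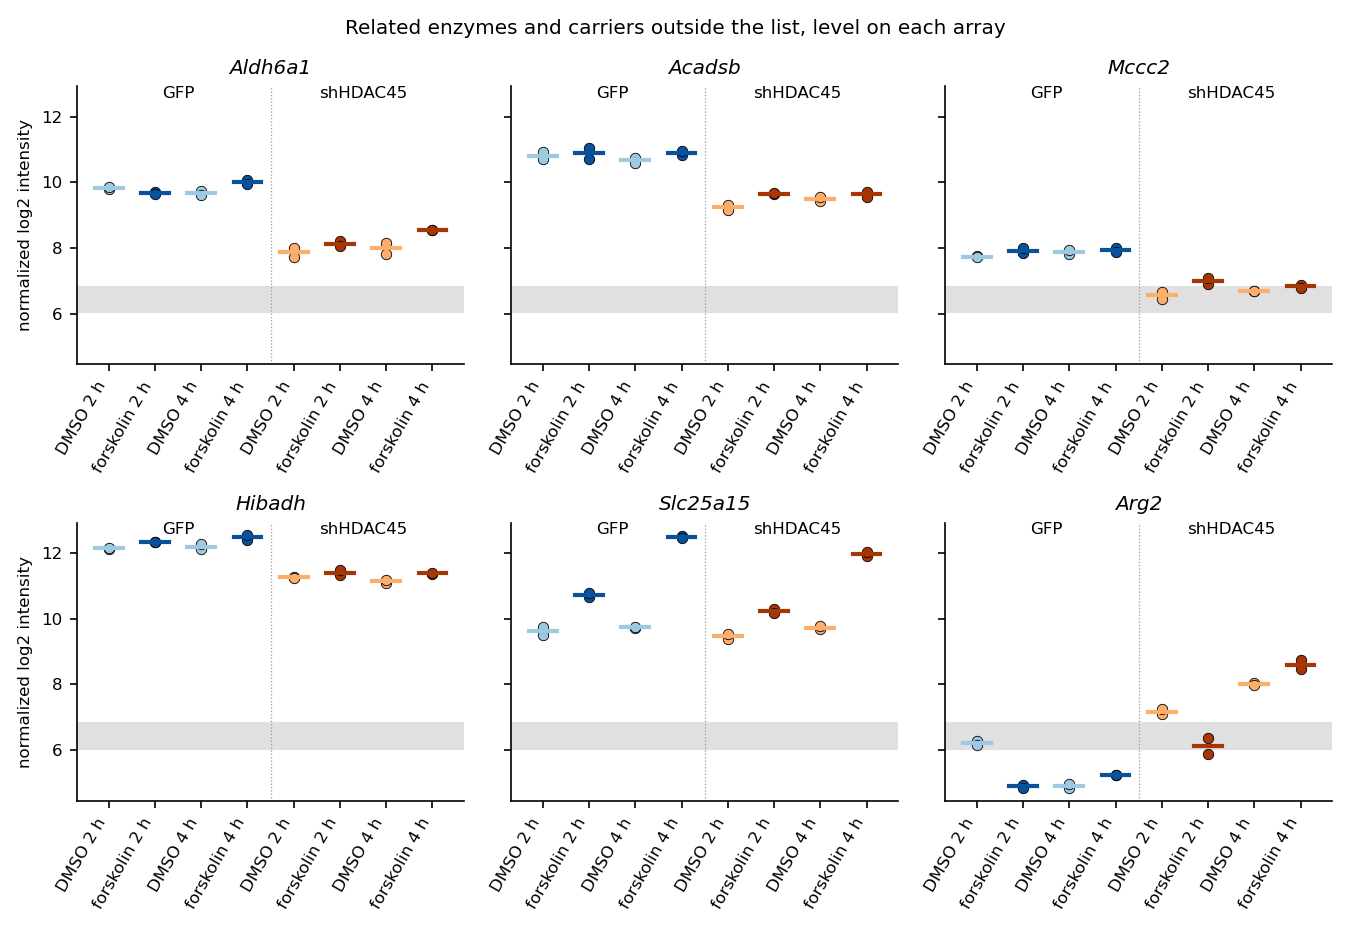
Normalized log2 intensity (vertical axis) of 6 amino acid genes outside the 37 on each of the 16 arrays (points), by virus, treatment and time, with means of 2 arrays as bars and the lowest detected signals as a grey band. Aldh6a1, Acadsb, Mccc2 and Hibadh lie lower on the shHDAC45 arrays, Slc25a15 lies high with forskolin with both viruses, and Arg2 lies above the band on shHDAC45 arrays alone, in 3 of the 4 conditions.

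A list of 17 regulators of amino acid breakdown or of the cAMP response was examined too. It holds transcription factors and cofactors, the glucagon receptor Gcgr, and the sirtuins Sirt3 and Sirt5. Of the 17, 14 were measured. On the mean of the 4 conditions 7 were lower and 6 higher in shHDAC45 cells, where 36.2% of all genes were lower and 37.5% higher. Hnf4a, a nuclear receptor of hepatocytes, lay between 10.74 and 12.10 on the GFP arrays and between 8.82 and 10.39 on the shHDAC45 arrays, a difference of -1.96 ± 0.06 (limma, adjusted p = 8e-12). Klf15, a factor known for the fasting control of amino acid enzymes, was on no shHDAC45 array above background, so it met the detection rule through GFP arrays alone. As a description, it was at least 2.61-fold lower there with forskolin at 4 h. Creb1 was on no GFP array above background, so it met the detection rule through shHDAC45 arrays alone. Klf15 and Creb1 are among the 14 genes counted here, and the counts were not made without them. Cebpa was lower by 0.91 ± 0.16 with DMSO at 4 h (limma, adjusted p = 0.00046) and by 0.87 ± 0.16 with forskolin at 4 h (adjusted p = 0.00055). Other regulators had higher means in shHDAC45 cells. With DMSO at 2 h Sirt3 was at 8.62 in GFP and 9.69 in shHDAC45 cells, and Creb3l3 at 7 and 8.57. With forskolin at 4 h Cebpb was at 12.09 and 13.67, but Creb3l3 at 8.55 and 8.1. With forskolin at 2 h Cebpb was at 13.46 and 12.85. Whether these levels have a part in those of the amino acid genes was not tested.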

How the data were processed

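Biotin-labelled cRNA from mouse hepatocytes was measured on 16 Illumina bead arrays, 2 for each of 8 groups. The deposited intensity values, on a linear scale, came out of GenomeStudio per the submitters' processing notes (version not given in the sources used here). The detection p-value beside each intensity is named per the file headers. A further deposited table of normalized intensity values served as an alternative, and how it was normalized is not stated in these sources. Groups came from the sample titles, and the letters A and B of the columns name the arrays.

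The neqc function of limma 3.58.1 in R 4.3.3 corrected the background with the help of the detection p-values, added an offset of 16 and returned quantile-normalized log2 values, which compresses differences of dim genes. Of 24613 probes, 20984 named 1 gene, 1 several and 3628 none. Probes detected at p under 0.01 on at least 2 arrays were kept (10439), and the brightest of a gene was used, which left 7746 genes. One model of 8 group means over all 16 arrays (8 residual and 4.6 prior degrees of freedom) gave 16 contrasts with two-sided tests, adjusted per contrast. The contrast of virus by time in DMSO was added after the values were seen. A gene was below background in a group where no probe of it was detected on any array.

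All measured members are named. Full statistics go to up to 8 with the smallest p in a contrast and to those with a called interaction, and further lists give up to 5. The alternatives tried were median scaling, values without background correction (offset 50), detection on 4 arrays, the authors' normalized values, no filter, the median over probes, only the compared arrays, an intensity trend in the variance prior, the array letter as a block, leaving out each array, and DMSO of the other time. The fit was tested on simulated data. Promoter sequences are from RefSeq, GRCm38.p6, by symbol. The members, lists and tests were chosen with earlier results of these data known.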

Additional observations from a re-analysis of the deposited data

Results flagged for a closer look

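The forskolin response differed between the viruses, by limma's test of the difference itself, for 4 of the 21 genes at 2 h. The difference, shHDAC45 minus GFP cells, was -1.49 for Ass1 (adjusted p = 1.3e-05), -1.54 for Aldh4a1 (adjusted p = 0.00038), 0.63 for Pccb (adjusted p = 0.025) and 0.89 for Slc7a2 (adjusted p = 0.0081). At 4 h it was -2.12 for Ass1 (adjusted p = 4.5e-07), -1.68 for Aldh4a1 (adjusted p = 0.00015) and -1.70 for Slc7a2 (adjusted p = 5.1e-05). For Slc7a2 the order of the viruses turned round at both times against DMSO of the other time.

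The forskolin response differed between the times in GFP cells for 7 genes. By limma's test the value at 4 h exceeded that at 2 h by 0.45 for Ass1 (adjusted p = 0.019), 0.47 for Aass (adjusted p = 0.03), 0.45 for Got2 (adjusted p = 0.039), 1.04 for Bckdhb (adjusted p = 0.0055), 0.55 for Pccb (adjusted p = 0.015), 1.82 for Ddc (adjusted p = 0.00016) and 4.35 for Slc7a2 (adjusted p = 6.4e-09). In shHDAC45 cells it did so by 1.09 for Aass (limma, adjusted p = 0.00029), 0.66 for Ftcd (adjusted p = 0.029), 1.11 for Pcca (adjusted p = 0.007), 2.05 for Ddc (adjusted p = 0.00016) and 1.76 for Slc7a2 (adjusted p = 4.4e-05). As given above, the DMSO levels of Bckdhb and Slc7a2 in GFP cells and of Ftcd, Pcca and Slc7a2 in shHDAC45 cells also moved with time. The second Got2 probe was not called in GFP cells.

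The change from 2 h to 4 h in DMSO differed between the viruses for 5 genes. The difference, shHDAC45 minus GFP cells, was -0.81 for Fah (limma, adjusted p = 0.0081), -0.92 for Glud1 (adjusted p = 0.014), 0.93 for Bckdhb (adjusted p = 0.021), -1.78 for Ddc (adjusted p = 0.00036) and 4.65 for Slc7a2 (adjusted p = 1.6e-09). The cause of these differences was not tested.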

How the results depend on the processing

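Over 26 alternatives, 99 of the 141 called differences of single genes kept their call under every alternative, and 47 of the 195 not called were called under some. Against DMSO of the other time 5 genes passed at 2 h in GFP cells (9 in the fit as reported) and 9 in shHDAC45 cells (3), and 17 of 84 forskolin differences changed sign. Of these, 5 were called with at least 1 of the DMSO choices, with values of -0.04 for Fah and 2.03 for Slc7a2 at 2 h and -0.50 for Bckdhb and -0.03 for Slc7a2 at 4 h in GFP cells, and -0.11 for Ftcd at 4 h in shHDAC45 cells. With the median over probes Got2 (knockdown, forskolin 2 h) was at -0.05 and Nags (knockdown, forskolin 4 h) at -0.47. Fitting only the compared arrays, which leaves fewer samples, called 0 genes for forskolin at 2 h in shHDAC45 cells, 0 at both times with both viruses, 2 for the virus difference at 2 h and 4 for the time difference in GFP cells. For time in DMSO in shHDAC45 cells the 3 calls became 5 without background correction, 1 with median scaling, 1 with only the compared arrays and 7 with an intensity trend. For the moved counts and signs the cause was not tested, beyond the fewer samples named.

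Leaving out 1 array at a time gave 5 to 9 genes for forskolin at 2 h in GFP cells, 1 to 3 at 2 h in shHDAC45 cells, 2 to 6 and 1 to 4 for time in DMSO in GFP and shHDAC45 cells, 4 to 7 for the time difference of the response in GFP cells, 3 to 6 for virus by time in DMSO and 1 to 3 for rises at both times with both viruses. With the array letter as a replicate block, 5 genes passed for time in DMSO in shHDAC45 cells, and no other count of genes moved by over 1.5 times. Deviations of same-letter arrays correlated at 0.0491 to 0.307, all above 0 and over 0.1 in 25 of 28 pairs of groups, a hint in the data of a shared letter effect. The letters were not taken as pairs because a correlation over 0.1 was required in every pair and no label ties them. With the block the calls over all genes for forskolin at 2 h in GFP cells went from 1651 to 2027. The number of arrays, 2 a group, and signals near background (Tdo2, Dbt, Kynu and Pcca) limit the precision.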
